A study of Mus musculus with 14 samples.

Results

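The genes described here are 10 genes by which stromal progenitor cells of the marrow niche are recognised: the secreted factors Kitl, Cxcl12, Angpt1 and Grem1, the receptors Lepr and Pdgfra, and the transcription factors Foxc1, Ebf3, Prrx1 and Gli1. They were taken by name, and each symbol was matched to its Ensembl gene. All 10 were found among the 47729 genes counted, and all 10 were among the 15015 genes with enough counts to be tested. Kitl, Lepr, Ebf3 and Grem1 were lower in CD105+ than in CD200+ cells of arthritic joints, beside 6.48% of all genes tested. These 4 of the 10 genes differed by 48.5 to 291-fold in the ratio of means. Grem1 kept its call in 2 of 10 fits that left out 1 library. With library sizes taken from added spike-in RNA, only Kitl passed. Pdgfra did not pass the test in that comparison (36.1 ± 26.9 against 26.5 ± 14.4 on the counts-per-million scale, CPM; SD, n = 5 each) and was counted in every CD105+ library. None of the 10 passed the test between arthritic and non-immunized CD200+ cells, beside 0% of all genes tested.

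In the bone marrow, perivascular stromal cells that carry the leptin receptor hold blood stem cells in place and keep them alive. They do so mainly through stem cell factor, the product of Kitl, which acts on the receptor Kit, and through the chemokine Cxcl12, which acts on Cxcr4. Foxc1 and Ebf3 are transcription factors that keep such cells in this state, while Grem1, Pdgfra, Prrx1 and Gli1 mark mesenchymal cells that can form bone, cartilage or fibroblasts. The genes were measured here in the synovium, the tissue lining the joint, and not in marrow.

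The data are RNA sequencing counts of 14 libraries, each from 200 to 500 cells sorted from knee joints of C57BL6 mice aged 16 weeks. Non-immunized mice were given PBS, and arthritic mice had antigen-induced arthritis: they were immunized with methylated bovine serum albumin in complete Freund's adjuvant and then received the same protein into the joint, with the knees taken on day 10. All cells were sorted as negative for TER119, CD31 and CD45 and positive for CD51, and then as CD200+CD105- or CD200-CD105+. The groups were CD200+CD105- cells of non-immunized mice (libraries 1 to 4), CD200+CD105- cells of arthritic mice (libraries 5 to 9) and CD200-CD105+ cells of arthritic mice (libraries 10 to 14), called CD200+ and CD105+ below; CD105+ cells of non-immunized mice were not analysed here. The labels do not tie libraries to animals, so libraries of a group may share an animal, and so may CD200+ and CD105+ libraries of arthritic mice. The groups were compared as unpaired, and p-values measure the spread between these libraries, which may be technical.

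Counts on mouse genes ranged from 2919666 to 18553803 per library, and added ERCC spike-in RNA took 20.3% to 92.0% of the reads counted, with 3 libraries over 80% (2, 5 and 6). Levels are CPM, scaled to the mouse gene counts of each library with TMM factors, and 3 counts in a library equal 0.170 to 0.910 CPM. Such limits cover counting error only. The sort marker Cd200 was 418 ± 98.4 CPM (SD, n = 5) in arthritic CD200+ cells and 2.29 ± 5.12 CPM (n = 5) in CD105+ cells, where all 120 counts lay in library 12. Eng, which encodes CD105, was low in every group, at 0.502 ± 0.582 CPM and 6.60 ± 4.85 CPM in the same order, and did not pass the test (edgeR adjusted p = 0.17). In non-immunized CD200+ cells Eng was at 5.27 ± 5.69 CPM (n = 4), up to 12.2 CPM.

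The promoters of the 4 genes that were lower in CD105+ than in arthritic CD200+ cells are shown, since these are the members that passed the test between the 2 populations. Each is the 250 bases before a RefSeq transcript start (GRCm38.p6), written 5' to 3' on the gene's strand, with capitals for the motif matches named after them. Kitl lies at chr10:100015571-100015820 (plus strand), Lepr at chr4:101717157-101717406 (plus), Ebf3 at chr7:137314446-137314695 (minus) and Grem1 at chr2:113758649-113758898 (minus). The RefSeq and GENCODE starts of Kitl differ. Its GENCODE start, 100015630, lies within the window, and all motif matches marked in Kitl lie after that start. The window of Lepr ends just past its GENCODE start, 101717404.
Kitl: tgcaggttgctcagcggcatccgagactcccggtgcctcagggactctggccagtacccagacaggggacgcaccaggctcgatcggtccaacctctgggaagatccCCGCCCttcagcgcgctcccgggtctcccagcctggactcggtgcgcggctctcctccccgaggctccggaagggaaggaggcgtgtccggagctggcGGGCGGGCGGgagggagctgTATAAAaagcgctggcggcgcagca
Lepr: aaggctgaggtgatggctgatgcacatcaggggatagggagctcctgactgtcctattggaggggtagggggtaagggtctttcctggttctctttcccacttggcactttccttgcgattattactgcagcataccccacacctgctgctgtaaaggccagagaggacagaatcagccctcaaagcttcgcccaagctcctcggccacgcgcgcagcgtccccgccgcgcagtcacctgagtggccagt
Ebf3: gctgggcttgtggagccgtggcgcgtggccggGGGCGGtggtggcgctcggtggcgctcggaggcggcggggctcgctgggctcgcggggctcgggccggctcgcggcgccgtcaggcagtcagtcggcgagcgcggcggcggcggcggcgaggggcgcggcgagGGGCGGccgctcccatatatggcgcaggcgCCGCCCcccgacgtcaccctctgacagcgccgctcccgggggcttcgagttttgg
Grem1: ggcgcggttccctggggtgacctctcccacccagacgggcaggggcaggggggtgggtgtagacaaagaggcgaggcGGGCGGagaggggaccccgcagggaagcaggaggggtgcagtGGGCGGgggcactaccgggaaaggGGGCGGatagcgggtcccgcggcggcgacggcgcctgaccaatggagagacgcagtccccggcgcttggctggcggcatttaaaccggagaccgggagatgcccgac
The windows of Kitl, Ebf3 and Grem1 each held 3 GC boxes (GGGCGG), a motif found in 32.7% of all 32851 RefSeq windows of this length, and that of Kitl also held a TATA box (TATAAA, in 12.4% of windows). In Kitl 2 of the GC boxes overlap. Both strands were searched for these and for 3 other motifs, which were absent from these 4 windows: a FOX motif (TGTTTAC, 3.17%), a RUNX motif (TGTGGT, 14% of windows) and a GLI motif (TGGGTGGTC, 0.225%). GC content was 69.2% in Kitl, 58.4% in Lepr, 80% in Ebf3 and 72% in Grem1, against a median of 52.4% over all windows. Windows were found for 8 of the 10 genes, without Angpt1 and Gli1. A match is a run of letters only, and a missing match says nothing of the factor.

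**Figure D1:**
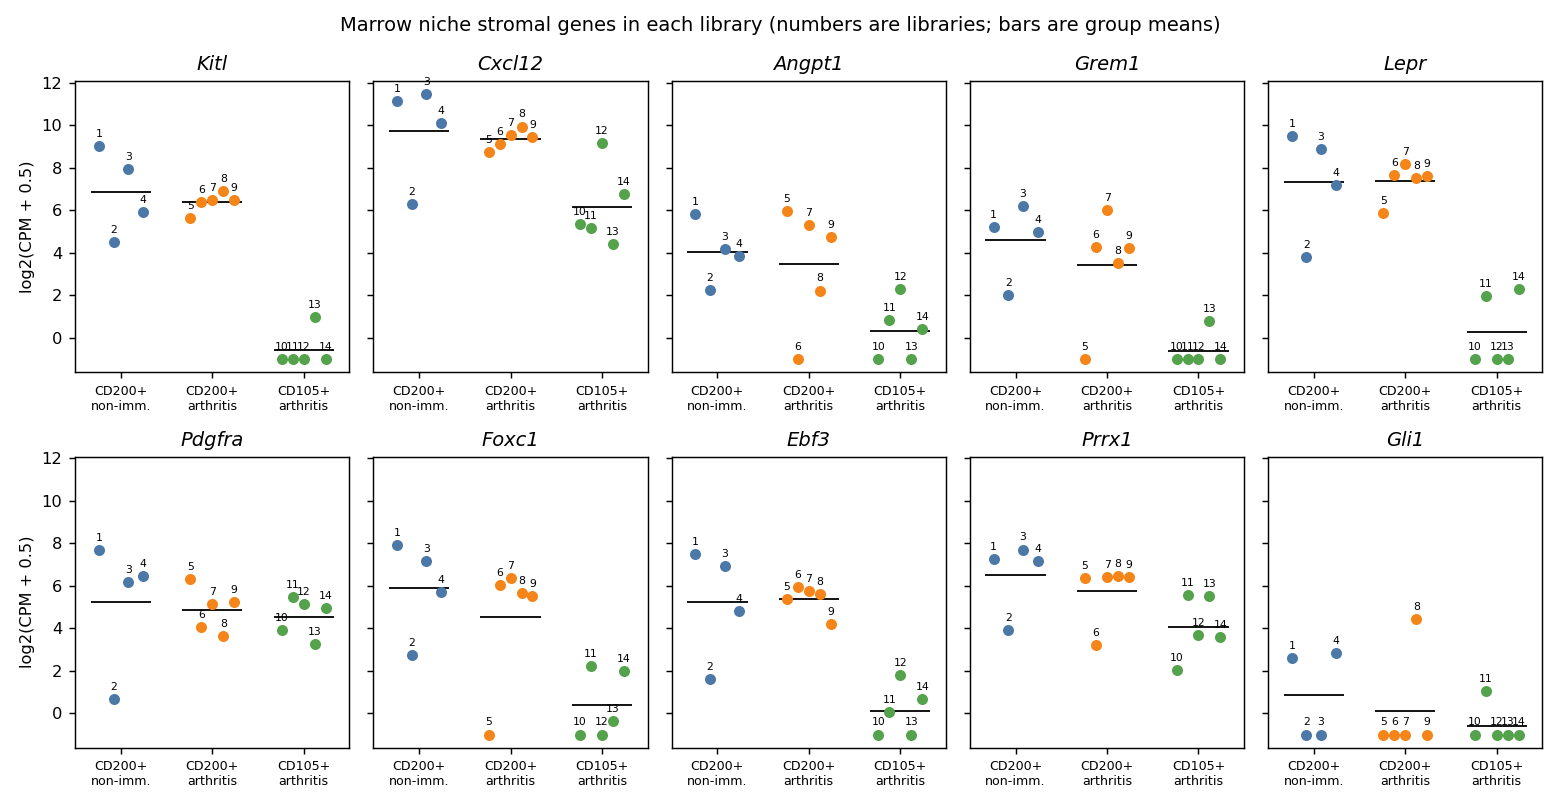
Level of each of the 10 genes in each library, as log2(CPM + 0.5) on the vertical axis against the group, with 1 numbered point per library and a bar at the mean of the log values. Kitl, Lepr and Ebf3 have no overlap between arthritic CD200+ and CD105+ libraries, while Pdgfra overlaps in all groups.

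Kitl encodes stem cell factor (ENSMUSG00000019966, chromosome 10, 100015630 to 100100416, GRCm38). In non-immunized CD200+ libraries 1 to 4 it was at 526, 22.0, 246 and 60.5 CPM, and in arthritic CD200+ libraries 5 to 9 at 48.7, 83.1, 89.7, 120 and 88.7 CPM. In CD105+ libraries 10 to 14 it had no count except in library 13, at 1.48 CPM (26 counts). Every CD200+ library lay above every CD105+ library. The mean fell from 86.1 ± 25.4 CPM (SD, n = 5) in arthritic CD200+ cells to 0.295 ± 0.661 CPM (n = 5) in CD105+ cells, a log2 difference of -7.97 ± 1.46 (SE; edgeR adjusted p = 0.00453), with the same direction in 5 of 5 CD105+ libraries. Without library 13 no CD105+ library had a count of Kitl. In bulk samples such as these, fewer cells that make a transcript and less of it per cell cannot be told apart.

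Cxcl12, the chemokine that retains blood stem cells in marrow (ENSMUSG00000061353, chromosome 6, 117168535 to 117181367), had the highest level per length of the 10 genes in each of the 3 groups. It was at 2234, 78.7, 2814 and 1086 CPM in non-immunized CD200+ libraries, at 432, 548, 753, 982 and 701 CPM in arthritic CD200+ libraries, and at 40.4, 35.1, 574, 20.5 and 109 CPM in CD105+ libraries. CD105+ library 12 therefore stood within the range of the arthritic CD200+ libraries, and the other 4 stood below it. The difference between the arthritic groups was -2.13 ± 0.93 on the log2 scale and did not pass the test (edgeR adjusted p = 0.154). With all libraries it did not pass in DESeq2 either (adjusted p = 0.126), but passed in voom with sample weights (0.00631). Without library 12 the difference was -3.73 and passed in edgeR (adjusted p = 0.016). That library also held 5118 CPM of 5 cartilage cell markers, against 0 to 6.03 CPM in the other 4 CD105+ libraries, and all of the group's Cd200 counts; their part in the result was not tested.

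Angpt1, a ligand of the endothelial receptor Tek (ENSMUSG00000022309, chromosome 15, 42424723 to 42676977), was at 55.9, 4.28, 17.3 and 13.9 CPM in non-immunized CD200+ libraries. In arthritic CD200+ libraries it was at 61.8, 0, 39.5, 4.15 and 25.9 CPM, and in CD105+ libraries at 0, 1.25, 4.39, 0 and 0.809 CPM. Arthritic libraries 6 and 8 and non-immunized library 2 lay within the CD105+ range. The log2 difference was -4.33 ± 1.67 between the arthritic groups and missed the threshold (edgeR adjusted p = 0.109); in DESeq2 it was past it, with an adjusted p of 0.0183. An antisense gene, Gm17473, shares 14.2% of the exon bases of Angpt1, and since no source used here gives the strand used in counting, their reads cannot be told apart; the same holds for the antisense genes named below.

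Grem1 encodes gremlin 1, a secreted antagonist of bone morphogenetic proteins (ENSMUSG00000074934, chromosome 2, 113746164 to 113758646). It was at 36.4, 3.53, 72.3 and 31.3 CPM in non-immunized CD200+ libraries and at 0, 18.5, 63.4, 10.9 and 18.4 CPM in arthritic CD200+ libraries. Only library 13 of the 5 CD105+ libraries held a count, at 1.19 CPM (21 counts). The absence of a count in arthritic library 5 makes the groups overlap. The mean fell from 22.3 ± 24.2 to 0.239 ± 0.534 CPM between the arthritic populations, a log2 difference of -6.38 ± 1.90 (edgeR adjusted p = 0.0445). This call was lost when any 1 of libraries 6 to 12 or 14 was left out (adjusted p up to 0.0899), held without library 5 or 13, and was lost without a filter on low counts (0.0707) and in a fit of these 2 groups alone (0.0772).

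Lepr, the leptin receptor, whose Cre line labels the stromal cells of adult marrow (ENSMUSG00000057722, chromosome 4, 101717404 to 101815352), was second to Cxcl12 in level per length in both CD200+ groups. It was at 711, 13.6, 473 and 143 CPM in non-immunized libraries and at 57.8, 200, 287, 184 and 193 CPM in arthritic CD200+ libraries. CD105+ libraries 10, 12 and 13 had no count, and libraries 11 and 14 stood at 3.40 and 4.34 CPM, below every CD200+ library. The mean fell from 184 ± 81.9 to 1.55 ± 2.15 CPM in arthritis, a log2 difference of -6.84 ± 1.51 (edgeR adjusted p = 0.0121), with all 5 CD105+ libraries lower.

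Leprot, the neighbouring gene on the same strand (chromosome 4, 101647718 to 101659364), encodes a protein other than the receptor and shares no exon base with Lepr in GENCODE M21. Its level was 131 ± 46.5 CPM in arthritic CD200+ cells and 301 ± 89.1 CPM in CD105+ cells, a log2 difference of 1.20 ± 0.44 that did not pass the test (edgeR adjusted p = 0.0914). CD105+ libraries stood at 308, 182, 429, 314 and 270 CPM, and arthritic CD200+ libraries at 184, 160, 72.8, 145 and 93.5 CPM. So the receptor's neighbour was counted in all 5 CD105+ libraries, including the 3 with no count of Lepr.

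**Figure D2:**
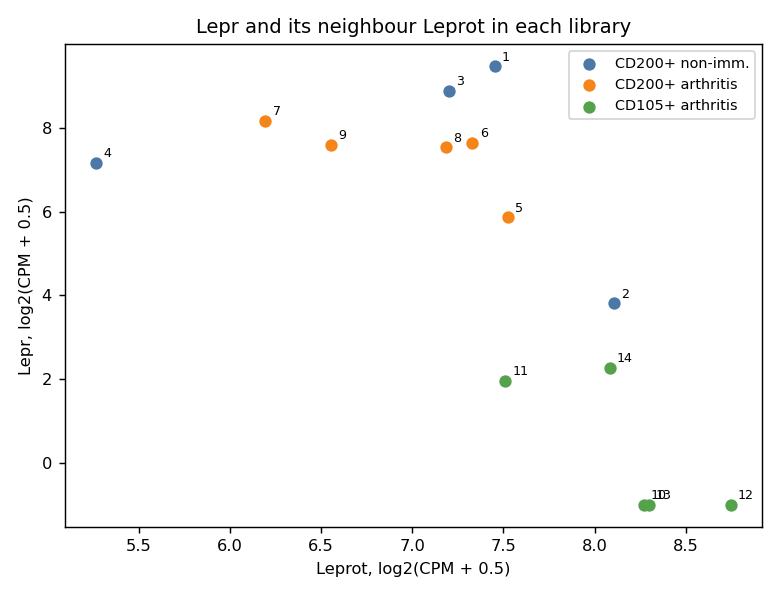
Lepr on the vertical axis against its neighbour Leprot on the horizontal axis, both as log2(CPM + 0.5), with 1 numbered point per library coloured by group. In CD105+ libraries Lepr lay between 0 and 4.34 CPM while Leprot lay between 182 and 429 CPM.

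Pdgfra, the receptor for platelet-derived growth factor A that marks most mesenchymal progenitors (ENSMUSG00000029231, chromosome 5, 75152292 to 75198215), did not follow Kitl and Lepr. It was at 206, 1.12, 72.4 and 87.9 CPM in non-immunized CD200+ libraries, at 79.9, 16.4, 34.7, 12.0 and 37.6 CPM in arthritic CD200+ libraries, and at 14.4, 43.9, 34.8, 9.20 and 30.1 CPM in CD105+ libraries. The 2 arthritic groups overlapped over most of their range. The log2 difference was -0.44 ± 0.87 (edgeR adjusted p = 0.811), and its sign turned with library sizes taken from the spike-ins (1.31) and without library 5 (0.12). With spike-in sizes the median of all genes was 1.22, and Pdgfra stood at 0.09 relative to it. Gm42802, an antisense gene, and Gm42803, which has no assigned class, share 4.55% and 1.66% of its exon bases.

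Foxc1, a forkhead factor required for the marrow niche (ENSMUSG00000050295, chromosome 13, 31806633 to 31812476), was at 245, 6.14, 142 and 51.9 CPM in non-immunized CD200+ libraries. It was at 0, 65.5, 83.4, 50.8 and 46.0 CPM in arthritic CD200+ libraries and at 0, 4.18, 0, 0.284 and 3.53 CPM in CD105+ libraries. Arthritic library 5, with no count, was the only CD200+ library within the CD105+ range. The log2 difference in arthritis was -4.90 ± 1.60 and did not pass (edgeR adjusted p = 0.0635). Leaving out library 5 brought it past the threshold (adjusted p = 0.0282), and so did leaving out all 3 libraries over 80% spike-ins (0.0244). With all libraries it passed in DESeq2 (adjusted p = 0.00406) and in voom with sample weights (0.0175). It did not pass in edgeR with spike-in library sizes (0.325).

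Ebf3, an early B cell factor family member that keeps marrow stromal cells from forming bone (ENSMUSG00000010476, chromosome 7, 137193673 to 137314445), was at 180, 2.60, 121 and 27.7 CPM in non-immunized CD200+ libraries and at 41.3, 61.3, 54.4, 47.9 and 18.1 CPM in arthritic CD200+ libraries. CD105+ libraries stood at 0, 0.537, 2.96, 0 and 1.10 CPM. All 5 were below the lowest arthritic CD200+ library, and library 12 was above non-immunized library 2. The mean fell from 44.6 ± 16.6 to 0.919 ± 1.23 CPM in arthritis, a log2 difference of -5.57 ± 1.35 (edgeR adjusted p = 0.0178). Gm45278, an antisense gene, shares 3.85% of the exon bases of Ebf3.

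Prrx1, a homeobox factor of limb mesenchyme (ENSMUSG00000026586, chromosome 1, 163245119 to 163313710), was counted in all 14 libraries. It was at 155, 14.7, 209 and 146 CPM in non-immunized CD200+ libraries, at 81.1, 8.79, 85.0, 86.7 and 86.3 CPM in arthritic CD200+ libraries, and at 3.55, 47.5, 12.4, 45.9 and 11.5 CPM in CD105+ libraries. Apart from library 6, the arthritic CD200+ libraries stood above all CD105+ libraries. The log2 difference of -1.52 ± 0.80 did not pass (edgeR adjusted p = 0.249).

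Gli1, a transcription factor and target of Hedgehog signalling (ENSMUSG00000025407, chromosome 10, 127329882 to 127341974), was the least counted of the 10 genes. It was found in non-immunized CD200+ libraries 1 and 4 at 5.50 and 6.60 CPM, in arthritic CD200+ library 8 at 20.9 CPM and in CD105+ library 11 at 1.55 CPM. The other 10 libraries had no count. Its difference did not pass the test in any comparison (edgeR adjusted p of 0.429 to 1). Gm47200 and Arhgap9 share 5.31% and 1.24% of its exon bases.

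Per kilobase of exon, the order of the arthritic CD200+ means was Cxcl12 (83.5 CPM per kb), Lepr (26.1), Kitl (14.6), Foxc1 (8.41), Prrx1 (6.29), Grem1 (5.37), Angpt1 (5.05), Ebf3 (4.83), Pdgfra (3.60) and Gli1 (0.838). In CD105+ cells Cxcl12 (19.1 CPM per kb), Pdgfra (2.64) and Prrx1 (2.18) came first, and the other 7 genes lay at or below 0.274 CPM per kb. In each group several neighbours in this order, such as Prrx1, Grem1, Angpt1 and Ebf3 in arthritic CD200+ cells, lay closer than their spread between libraries.

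Between CD105+ and CD200+ cells of arthritic joints, 4 of the 10 genes passed the test, all lower (Kitl, Lepr, Ebf3 and Grem1), beside 6.48% of all genes tested that were called lower and 4.79% that were called higher. The log2 difference was below 0 for 10 of 10, with a median of -4.62 against -0.05 over all genes tested. Groups did not overlap for 3 of the 10 (Kitl, Lepr and Ebf3, all lower), beside 6.33% of all genes lower and 10.4% higher without overlap. The calls of Kitl, Lepr and Ebf3 held in each of the 10 fits that left out 1 library (highest adjusted p of 0.0125, 0.025 and 0.0442, edgeR). With library sizes from the spike-ins, which moved the median of all genes to 1.22, only Kitl passed (adjusted p = 0.0234). On that scale 28.4% of the genes called were lower, against 57.5% in the main scaling. Lepr then differed by -4.98, Grem1 by -6.12 and Ebf3 by -4.21 (edgeR adjusted p of 0.104, 0.105 and 0.136, tested against 0). Relative to the median of all genes on that scale, these 3 stood at -6.20, -7.34 and -5.43, which was not tested.

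**Figure D3:**
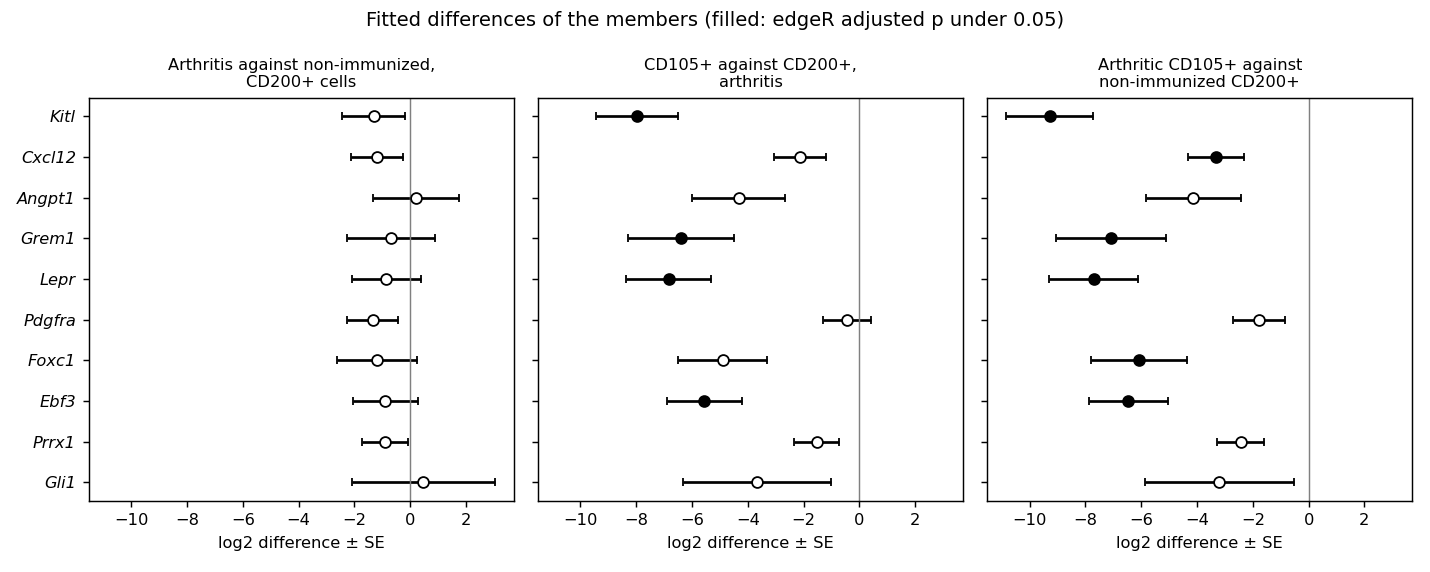
Log2 difference of the 10 genes in the 3 comparisons, with bars of 1 standard error and filled points where the edgeR adjusted p is under 0.05. The first comparison has no filled point, the second has 4 and the third has 6.

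Markers of some other cell types moved with these populations as well, while those of others overlapped between them. The summed CPM of 5 osteoblast markers was 95.8 to 5541 in arthritic CD200+ libraries and 1.05 to 39.1 in CD105+ libraries. Satellite cell markers summed to 775 to 1206 CPM and to 0 to 11.3 CPM, with Pax7 and Myf5 at 0 in CD105+ cells. Mural cell markers summed to 282 to 1394 CPM and to 3.77 to 271 CPM, and adipocyte markers to 247 to 2371 CPM and to 0 to 114 CPM, with Plin1 and Cidec at 0 in both CD200+ groups and Adipoq and Plin1 at 0 in CD105+ cells. Erythroid markers went the other way, at 2.42 to 4948 CPM in arthritic CD200+ libraries and 15807 to 132447 CPM in CD105+ libraries. Synovial lining markers summed to 42.8 to 2059 CPM and to 81.0 to 5634 CPM. Endothelial markers summed to 0.136 to 120 CPM and to 0.191 to 21.2 CPM. Each list held 5 markers, all of them in the table, and their part in the differences of the 10 genes was not tested. Macrophage markers summed to 0 to 260 CPM in arthritic CD200+ libraries and to 4834 CPM in CD105+ library 11, against 4.22 to 13.9 CPM in the other 4 CD105+ libraries. B and plasma cell markers were all at 0 in arthritic CD200+ libraries, summed to 0 to 36.7 CPM in CD105+ libraries and to 1537 CPM in non-immunized library 3, against 0 to 4.65 CPM in the other 3. T and NK cell markers summed to 0 to 7.07 CPM in arthritic CD200+ libraries and to 0 to 0.657 CPM in CD105+ libraries. In non-immunized libraries they summed to 1.21 to 56.8 CPM. Of these markers, Cd3e, Cd3d and Cd3g were at 0 in every library, and the counts were of Nkg7 and Trac.

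Between CD200+ cells of arthritic and of non-immunized mice, 0 of the 10 genes passed the test, beside 0% of all genes tested. The point estimates were below 0 for 8 of the 10 genes, with a median log2 difference of -0.90 against -0.10 over all genes, and the groups overlapped for all 10, beside 1.18% of all genes lower and 1.11% higher without overlap. Cxcl12 was 1553 ± 1217 CPM (SD, n = 4) in non-immunized and 683 ± 210 CPM (n = 5) in arthritic cells, Kitl 214 ± 230 and 86.1 ± 25.4 CPM, and Lepr 335 ± 317 and 184 ± 81.9 CPM. The largest estimate was that of Pdgfra, at -1.35 ± 0.92 on the log2 scale (edgeR adjusted p = 1). Over all genes, 915 (6.09%) had an unadjusted p under 0.05 in edgeR, none of them among the 10. DESeq2 called 343 genes and voom 4, again none of the 10. A miss of this kind does not show that the levels were alike.

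The 4 non-immunized libraries varied widely among themselves. Library 2 was the lowest of the 4 in all 10 genes (tied at 0 with library 3 for Gli1), and libraries 1 and 3 held the highest value of 9 of them. Kitl thus ran from 22.0 CPM in library 2 to 526 CPM in library 1, and Lepr from 13.6 to 711 CPM in the same libraries. Library 2 had 85.4% spike-in reads and 134 CPM of adipocyte markers, against 559 to 2629 CPM in the other 3, while its osteoblast markers (13674 CPM) lay within their range of 7569 to 14494 CPM. Whether these bear on the low values was not tested. Osteoblast markers differed between the CD200+ groups without overlap, at 95.8 to 5541 CPM in arthritic libraries.

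Over the 9 CD200+ libraries the genes rose and fell together to different degrees. The 45 pairwise Pearson correlations of log2(CPM + 0.5) ran from -0.126 to 0.953, with a median of 0.57, and 2 were negative. The highest was between Grem1 and Foxc1, which share the absence of counts in library 5 and low values in library 2. Cxcl12 and Lepr reached 0.934, Kitl and Lepr 0.919, and Lepr and Ebf3 0.899. All values come from the same libraries of unequal depth and are given as a description.

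Each member but Gli1 was set against 10281 other genes over the 14 libraries. These had a regular symbol (no Gm or Rik name, for example) and a mean of at least 10 CPM in a group. Among them, Kitl was most like Esm1 (r = 0.99) and Gdpd2 (0.984). Esm1 had means of 249 ± 257 CPM in non-immunized CD200+ cells, 84.2 ± 28.2 CPM in arthritic CD200+ cells and 0.602 ± 1.35 CPM in CD105+ cells. Lmo4 (0.958) was among the genes most like Lepr. Foxc1 was most like Fzd7, a Wnt receptor (0.982), and Zfp275 (0.964), and Ebf3 most like Cd302 (0.958) and Gprc5c (0.945). Cxcl12 was most like Col11a1, a cartilage collagen (0.946), and Ebf3 (0.928), and Grem1 like Pappa (0.954) and Serpina12 (0.945). For Angpt1 the closest were Atg16l2 (0.961) and Kank1 (0.93), for Prrx1 Wwc2 (0.937) and Kif5b (0.935), and for Pdgfra Smad2 (0.934) and Yaf2 (0.886). The group differences enter these values, and the genes are the top of many compared.

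Between CD105+ cells of arthritic and CD200+ cells of non-immunized mice, where population and disease differ together, 6 of the 10 genes passed the test, all lower, beside 7.63% of all genes called lower and 5.57% called higher. They were Kitl (-9.28 on the log2 scale, edgeR adjusted p = 0.00228), Lepr (-7.70, 0.00734), Ebf3 (-6.46, 0.0101), Grem1 (-7.07, 0.0315), Foxc1 (-6.08, 0.0328) and Cxcl12 (-3.32, 0.0423). Prrx1 (-2.44, 0.0727) and Pdgfra (-1.79, 0.224) did not pass. Groups did not overlap for 4 of the 10 (Kitl, Lepr, Grem1 and Foxc1), beside 11.5% of all genes lower and 12.5% higher without overlap. This comparison shares its CD105+ libraries with the previous one and its non-immunized libraries with the comparison within CD200+ cells. Kitl, Lepr and Ebf3 held in all 9 fits that left out 1 library. Cxcl12 held only without library 2 or 12, Grem1 only without 2 or 13, and Foxc1 only without 2, 4, 11 or 12, with adjusted p up to 0.107, 0.0695 and 0.0791 in the other fits, while Prrx1 passed without library 2 (0.0379). In the fit lacking all 3 libraries over 80% spike-ins, Pdgfra and Prrx1 passed too (0.0291 and 0.017). With all libraries Prrx1 passed in edgeR with RLE factors (adjusted p = 0.0454), in DESeq2 (0.00876) and in voom (0.00716). Prrx1 did not pass in edgeR with spike-in sizes (0.6). With RLE factors in place of TMM, 68.1% of the genes called were lower, against 57.8%, and with spike-in sizes 39.9%. Spike-in sizes left only Kitl past the threshold (adjusted p = 0.0183), with 0.0819 for Lepr, 0.0807 for Ebf3, 0.0995 for Grem1, 0.189 for Foxc1 and 0.186 for Cxcl12. Cxcl12 also missed it with no filter on low counts (0.0527) and in a fit of these 2 groups alone (0.0921), and Foxc1 with no filter (0.05).

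**Figure D4:**
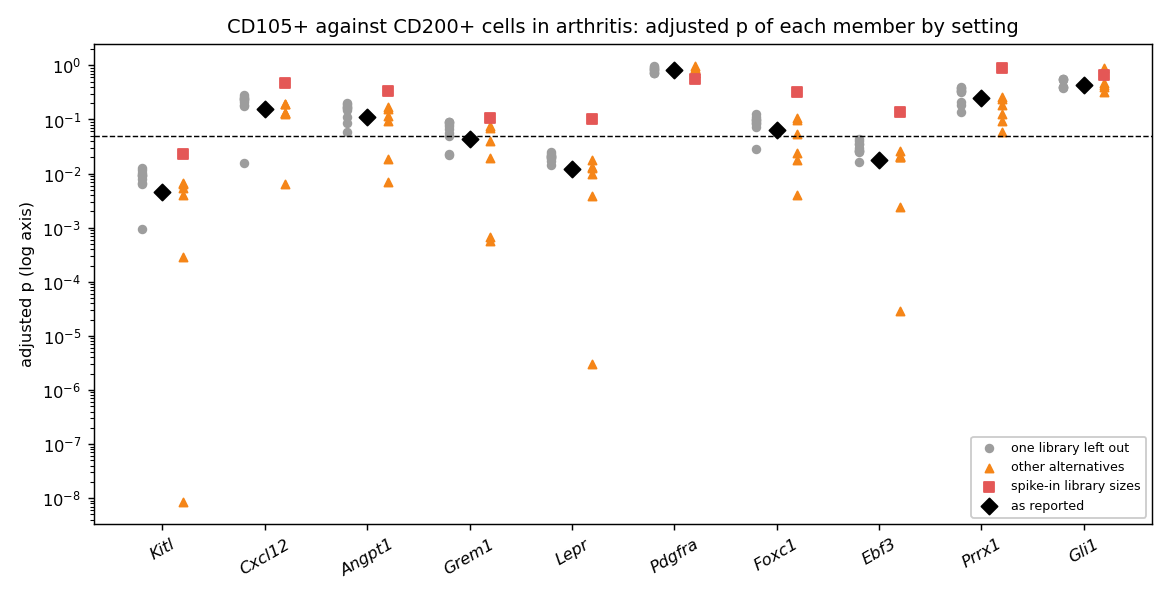
Adjusted p on a log axis of each of the 10 genes in CD105+ against CD200+ cells of arthritic joints, as reported (diamonds), with 1 library left out (grey points), with spike-in library sizes (squares) and under the other alternatives (triangles), with a dashed line at 0.05. All points of Kitl lie under the line, and all those of Pdgfra, Prrx1 and Gli1 lie above it.

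The partners of the 10 genes were looked at in lists of their pathways, in the comparison of CD105+ with CD200+ cells of arthritic joints. Of 7 receptors of niche ligands, 5 were tested, with a median log2 difference of 0.77, and 1 was lower, beside 6.48% of all genes tested. This was Ackr3, which binds and clears Cxcl12 and fell from 177 ± 161 to 20.7 ± 21.4 CPM (log2 difference -3.09, edgeR adjusted p = 0.0371). Its call was lost without library 5, 8, 10, 12, 13 or 14 (adjusted p up to 0.0856) and without the 3 libraries over 80% spike-ins (0.086). The receptors of Kitl and Cxcl12 were low in both populations and did not pass: Kit was 6.32 ± 8.65 and 13.3 ± 9.97 CPM, and Cxcr4 6.60 ± 6.68 and 11.3 ± 10.1 CPM, in arthritic CD200+ and CD105+ cells. Itga4, an integrin chain that binds Vcam1, did not pass at 3.11 ± 4.81 and 133 ± 32.8 CPM (edgeR adjusted p = 0.0684). Its CD105+ libraries (95.0 to 183 CPM) all lay above the arthritic CD200+ libraries (0 to 10.9 CPM). Over all genes tested, 10.4% were higher without overlap. Tek, the receptor of Angpt1, had a log2 difference of -4.31 (adjusted p = 0.348) that turned to 0.63 without library 5.

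Of 24 other genes of marrow stromal cells, 10 were lower and none higher, beside 6.48% of all genes tested called lower and 4.79% called higher, and all 24 differences were below 0, with a median of -3.48. Vcam1, an adhesion molecule for blood cells, fell from 830 ± 198 to 20.9 ± 11.1 CPM (log2 difference -5.31 ± 0.43, edgeR adjusted p = 3.63e-05). Bmp4 fell from 144 ± 82.6 to 0.355 ± 0.677 CPM (-9.12 ± 1.27, adjusted p = 0.000678). Adipoq, the adipokine that adipocytes and marrow stromal cells make, was at 532 ± 645 CPM and had no count in CD105+ cells, at least 11158-fold lower against a floor of 3 counts over the group. With spike-in library sizes 4 of the 24 passed, and 8 to 12 passed when 1 library was left out.

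Of 15 genes of gremlin and BMP signalling, 13 were tested and 8 were lower, beside 6.48% of all genes tested, with a median of -3.79 (-3.78 with genes of no count in CD105+ cells set at their bound). Id3, a target of BMP signalling, fell from 1859 ± 339 to 111 ± 93.9 CPM (log2 difference -4.07 ± 0.52, edgeR adjusted p = 0.000361), and Id2 fell from 262 ± 180 to 11.9 ± 11.0 CPM (-4.47, adjusted p = 0.00229). The receptor Bmpr2 fell from 112 ± 31.7 to 9.76 ± 6.34 CPM (-3.52, adjusted p = 0.00225). None of the 8 passed with spike-in library sizes.

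In the Hedgehog pathway, 12 of 17 genes were tested and 3 were lower, beside 6.48% of all genes tested, with a median of -3.11. Gas1, a coreceptor for Hedgehog proteins, fell from 185 ± 89.0 to 25.9 ± 8.34 CPM (log2 difference -2.84 ± 0.43, edgeR adjusted p = 0.00128), and Gli2 from 14.9 ± 10.2 to 0.131 ± 0.294 CPM (-6.63, adjusted p = 0.0206). Hhip, which binds Hedgehog proteins, had 12.2 ± 20.4 CPM and no count in CD105+ cells (adjusted p = 0.045), a call lost without any 1 of libraries 7 to 14 (up to 0.0823). The ligands Shh and Dhh had no count in either population. None of the 3 passed with spike-in library sizes.

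Of 23 mesenchymal transcription factors, 21 were tested and 3 were lower, beside 6.48% of all genes tested, with a median of -2.11. Runx2, which directs bone formation, had 51.0 ± 52.2 CPM in arthritic CD200+ cells and no count in CD105+ cells (edgeR adjusted p = 0.0148). The mean was at least 1069-fold lower in CD105+ cells, against a floor of 3 counts over the group. The groups overlapped, since arthritic CD200+ libraries ran from 0 to 123 CPM of Runx2. Sp7 fell from 33.9 ± 27.2 to 0.153 ± 0.341 CPM (log2 difference -7.73, adjusted p = 0.0109), and Runx1 fell from 106 ± 38.2 to 18.4 ± 11.2 CPM (-2.52, adjusted p = 0.0174). With spike-in library sizes Sp7 and Runx2 passed.

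The smaller lists held 0 or 1 call each, against the same 6.48% of all genes called lower. In the PDGF pathway, with a median of -2.76, 1 of 5 tested genes was lower: the ligand Pdgfa fell from 109 ± 72.3 to 7.36 ± 7.84 CPM (log2 difference -3.88, edgeR adjusted p = 0.0365), a call lost without library 7, 8, 9, 10, 12 or 13 (up to 0.0803). Pdgfc (28.3 and 1.59 CPM, adjusted p = 0.0554) and the receptor Pdgfrb (98.4 ± 53.7 and 14.5 ± 16.8 CPM, 0.128) did not pass. In the angiopoietin pathway, with a median of -2.26, 1 of 6 tested genes, Angpt4, was lower (14.2 ± 10.5 and 0.265 ± 0.592 CPM, adjusted p = 0.0475), a call lost without any 1 of libraries 6 to 13 (up to 0.0932). In the leptin receptor pathway 0 of 7 tested genes passed in edgeR, with a median of 0.30. An unadjusted p under 0.05 in edgeR was found for 3, beside 4030 of all 15015 genes tested. DESeq2 called 2 lower, beside 2173 of 16762 genes, and voom called 1 lower, beside 2513 of 15015 genes. Socs3, an inhibitor of the receptor's signal, was at 89.7 ± 56.0 and 6.15 ± 8.29 CPM (adjusted p = 0.0557), and Lep had no count in either population. Within CD200+ cells, arthritic against non-immunized, 0 of the 93 tested genes of these 8 lists passed in edgeR, beside 0% of all genes. An unadjusted p under 0.05 in edgeR was found for 2 of the 93, beside 6.09% of all genes.

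**Figure D5:**
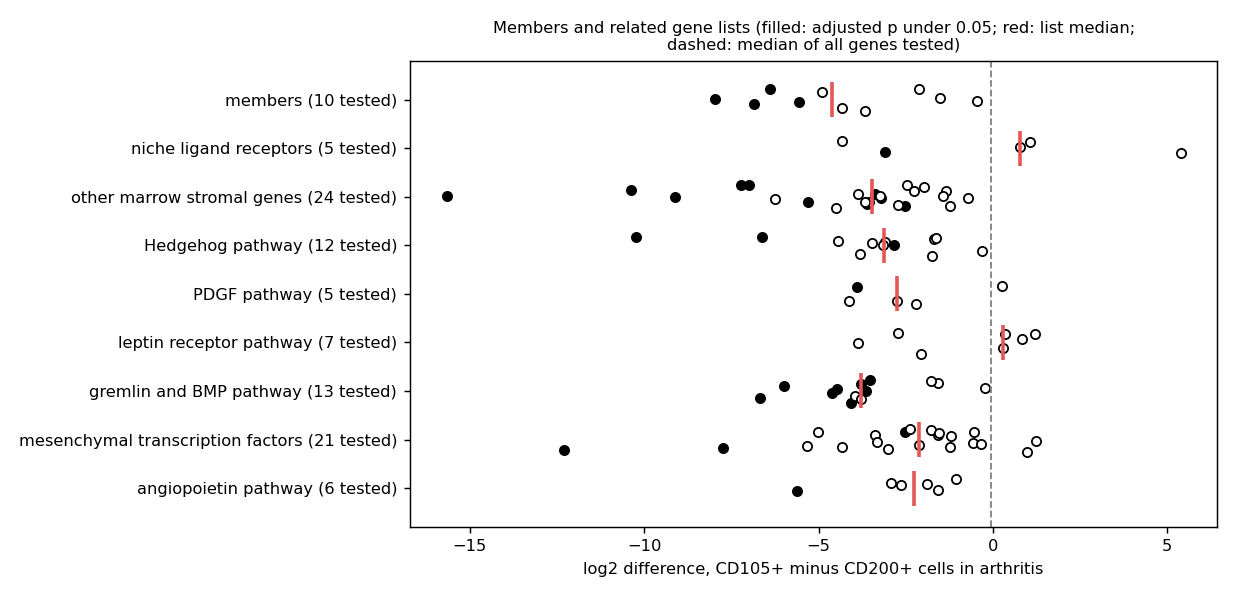
Log2 difference, CD105+ minus CD200+ cells of arthritic joints, of each tested gene (points, spread vertically for clarity) in the 10 members and the pathway lists, filled where the edgeR adjusted p is under 0.05. Red bars are list medians and the dashed line is the median of all genes tested, -0.05; every filled point lies below 0.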

How the data were processed

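Sorted synovial cells of mice gave 14 RNA libraries, made with SMART-Seq v4 and ERCC spike-ins. The deposited values are raw counts of reads, whole numbers for each gene per the file headers, made by the authors with cutadapt, HISAT2 and StringTie on GRCm38 (mm10), per the submitters' processing notes, which also name edgeR; versions and the strand setting are not given in the sources used here. A filtered table was not used. Symbols and positions came from GENCODE M21, which named 47310 of 47729 gene IDs; 92 spike-in rows stayed out of library sizes. All columns mapped to a sample.

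With edgeR 4.0.16 (R 4.3.3), 15015 genes passed filterByExpr (minimum count 10). Their counts entered, with TMM factors, 1 quasi-likelihood model of 3 groups with the robust option; the common coefficient of biological variation was 1.28 and the median prior df 2.99. Two-sided p-values were adjusted by Benjamini-Hochberg over all genes tested, with a threshold of 0.05. Standard errors are the absolute log2 difference divided by the square root of F. The lowest chi-square per gene over 26 pairs of libraries of a group was 85.1, so none was counted as a duplicate. Promoters came from RefSeq.

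Alternatives were RLE factors, spike-in library sizes, no filter, DESeq2 1.42.0, limma 3.58.1 voom with sample weights, the 2 groups compared alone, no library over 80% spike-ins, and leaving out each library. For the pathway lists they were added after seeing the data. The test was checked on simulated data. All 10 genes were named, with the 3 listed genes of smallest p in the second comparison, partners of a member, and the 2 genes most like each member with 10 CPM in a group, which leaves out Gli1; 1 gene that this rule selects is not reported here. The members and lists were chosen with earlier results of these data known.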

Additional observations from a re-analysis of the deposited data

Results flagged for a closer look

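In 7 of 30 sets of 1 gene and 1 group, 1 library lay far from the others by Dixon's test. For normally distributed values chance alone flags about 1 in 20 groups. The CPM were not transformed, so that rate need not hold here, and a group with counts in 1 library only is always flagged. In CD105+ cells, Kitl was at 1.48 CPM in library 13 (26 counts) and Grem1 at 1.19 CPM in the same library (21 counts), with no count in the other 4. Gli1 was at 1.55 CPM in CD105+ library 11 (26 counts), with none in the other 4. Cxcl12 was at 574 CPM in CD105+ library 12, with 109 CPM as the next value, and Angpt1 at 4.39 CPM in that library, with 1.25 CPM next. In arthritic CD200+ cells, Gli1 was at 20.9 CPM in library 8 (308 counts), with none in the other 4, and Prrx1 was at 8.79 CPM in library 6, against 81.1 CPM in the next lowest library.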

How the results depend on the processing

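Fits that left out 1 library called 0 to 2 genes for arthritic against non-immunized CD200+ cells (2 without library 3), 1090 to 1713 for CD105+ against CD200+ cells in arthritis (1090 without library 14; 1692 with all libraries) and 1308 to 1762 for CD105+ against non-immunized CD200+ cells (1982). Of the 10 genes they called 0, 3 to 5 and 3 to 7. Spike-in library sizes gave 545 and 278 genes in the 2 comparisons with CD105+ cells and 1 of the 10 genes (Kitl) in each. DESeq2 gave 343, 3538 and 4060 genes, and voom gave 4, 4624 and 4993, with 7 of the 10 genes for CD105+ against CD200+ cells in arthritis. Of the values of single genes among the 10 under all alternatives, 417 kept their direction and side of the threshold, 16 newly passed, 40 no longer passed and 10 changed sign. Angpt1 in arthritic against non-immunized CD200+ cells (0.20) changed to -0.12 with spike-in sizes, -0.44 with voom, -0.34 without the 3 libraries over 80% spike-ins, and -0.41 to 1.14 with 1 library left out; Gli1 (0.47) changed to -1.74 with voom. In arthritis, Pdgfra changed to 1.31 with spike-in sizes, where the median of all genes was 1.22, and ran from -0.70 to 0.12 with 1 library left out. Tek changed to 0.26 without the 3 libraries and ran from -10.92 to 0.63 with 1 library left out. The cause was not tested. Differences of Kitl and Grem1 without library 13 (to -12.99 and -11.04) rest on groups with no count, so they depend on the prior count. No paired analysis was possible because library numbers run from 1 to 14 and no 2 groups share one. A library's floor of 3 counts was 0.170 to 0.910 CPM, and Gli1 had counts in 4 of 14 libraries.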
